A study of Homo sapiens with 12 samples.

Results

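Eph receptors are receptor tyrosine kinases, and ephrins are the ligands that stay bound to the surface of the neighbouring cell. The genes described here are 6 receptors (EPHA2, EPHA3, EPHA4, EPHB2, EPHB3 and EPHB4) and 4 ephrins (EFNA1, EFNA5, EFNB1 and EFNB2), which are 10 of the 22 Eph and ephrin genes that have a row in the files and 10 of the 19907 genes listed there. They were taken by symbol. The 10 were selected on earlier results from these same 12 libraries, that is, on their normalised read counts across the groups. The stated rule names no threshold and no contrast, so the values, counts and p-values given for the 10 genes describe them and are not independent evidence. All 10 passed the filter on low values that left 15957 genes for testing.

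RNA was measured in MDA-MB-231 cells, an established human breast cancer line that lacks the oestrogen receptor. The cells expressed S134A-GR, a glucocorticoid receptor with a serine replaced by alanine, or WT-GR, the wild-type receptor. Cells of both genotypes were kept for 18 h in IMEM with 1% DCC and then received 1 µM dexamethasone (Dex), a synthetic glucocorticoid, or vehicle for 6 h. The 4 groups of 3 libraries each were thus S134A-GR with Dex, S134A-GR with vehicle, WT-GR with Dex and WT-GR with vehicle. The labels do not say whether a receptor line is 1 clone, how each receptor was introduced or whether replicate libraries are separate cultures. In the main test, p-values rest on the spread among libraries within a group, pooled over the 4 groups in 1 fit. That spread may be technical. A gene thus has the same SE in both genotypes, also where the groups vary unequally.

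Signalling in this family needs contact between cells and runs both ways: forward into the cell with the receptor, and in reverse into the cell with the ephrin. A ephrins are held in the membrane by a lipid anchor and B ephrins cross it, and A and B receptors mostly bind ligands of their own letter. The family is known for guiding axons, for keeping tissue boundaries and for separating arteries from veins, and EPHA2 is among the receptors found at high levels in many carcinomas, basal-like breast cancers included.

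The data are normalised read counts per gene, which are read counts divided by a size factor of the library. Recovered depth was 56.36 to 100.6 M reads per library. The 6 mesenchymal and basal-like markers of the line (VIM, CD44, FN1, SPARC, KRT18 and EGFR) reached 9197 or more normalised counts in all 12 libraries, with VIM at 366469 to 431198. S134A-GR cells had less FN1, a matrix gene, than WT-GR cells, with a difference of -2.10 on the log2 scale in vehicle and -2.14 in Dex, and KRT18 differed by -0.21 and -0.36, all called by limma. Of the markers listed as low or absent in this line, ESR1 did not exceed 5.66, CDH1 17.1 and ESRP1 48.7, whereas ERBB2 reached 8864 to 12005 and EPCAM 315 to 1093, so these last 2 go against that list. EPCAM differed by -1.44 between S134A-GR and WT-GR cells in vehicle and by -1.49 in Dex, both called. Of the blood markers with a row, HBA1 was listed at 0 throughout, and PTPRC and LYZ did not exceed 39.7. Of 5 endothelial markers, PECAM1 reached 1079 to 2780, VWF 141 to 414 and CDH5 13.2 to 420, while TEK and CLDN5 did not exceed 20.5. PECAM1 rose with Dex in both genotypes, by 0.83 in S134A-GR cells and 0.90 in WT-GR cells, CDH5 rose by 1.07 in WT-GR cells, and VWF fell in both. CDH5 differed by -3.28 between S134A-GR and WT-GR cells in vehicle and by -3.60 in Dex, and PECAM1 by -0.25 and -0.32, all called by limma. EFNB2, a marker of arterial endothelium, moved in the same directions as PECAM1 in these comparisons. The other endothelial markers did not all follow EFNB2. With Dex, VWF went the other way in both genotypes, and CDH5 was called in WT-GR cells only. The part of the endothelial markers in the results was not tested. The glucocorticoid-induced genes TSC22D3, FKBP5 and PER1 rose with Dex in both genotypes. The FKBP5 response was the smaller with S134A-GR, at 3.33 against 3.715 with WT-GR, a difference of -0.38 (limma adjusted p = 0.023). The response differences of TSC22D3 (-0.07) and PER1 (-0.435) were not called by limma, and DESeq2 called 2 of the 3 genes. Between genotypes in Dex, TSC22D3 differed by -0.62 and FKBP5 by -0.44, both called by limma, and PER1 by 0.14, not called. NR3C1, which encodes the glucocorticoid receptor, differed by -0.41 on the log2 scale between S134A-GR and WT-GR cells in vehicle (limma adjusted p = 5.18e-04), and a count per gene does not show which amino acid is encoded. The WT-GR Dex libraries varied most among themselves, with a median SD per gene of 0.148 on the log2 scale, against 0.0646 to 0.094 in the other groups. In libraries 2 and 3 of that group, 193 and 210 genes had a count of 1 read, where the remaining 10 libraries had 352 to 409 such genes.

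By GENCODE 29 (GRCh38), the receptors lie at chr1:16124337-16156087 (EPHA2, minus strand), chr3:89107524-89482134 (EPHA3, plus), chr2:221418027-221574202 (EPHA4, minus), chr1:22710839-22921500 (EPHB2, plus), chr3:184561784-184582409 (EPHB3, plus) and chr7:100802565-100827521 (EPHB4, minus). The ephrins lie at chr1:155127460-155134857 (EFNA1, plus), chr5:107376889-107670895 (EFNA5, minus), chrX:68828997-68842147 (EFNB1, plus) and chr13:106489731-106535662 (EFNB2, minus). The start regions of 5 genes are shown because these genes carry the results below: EFNB2, EFNA5 and EPHB3 had the largest Dex differences of the 10, EPHA2 the highest level, and EPHA3 the largest difference between genotypes. Each line is the 250 bases before the RefSeq transcript start (GRCh38.p14), read 5′ to 3′ along the gene. The stretches lie at chr13:106535663-106535912 on the minus strand for EFNB2, chr5:107670938-107671187 on the minus strand for EFNA5, chr3:184561535-184561784 on the plus strand for EPHB3, chr1:16156070-16156319 on the minus strand for EPHA2 and chr3:89107371-89107620 on the plus strand for EPHA3. Capitals mark GC boxes (GGGCGG, or CCGCCC where it is read on the other strand), and in EFNB2 also TTTATA, which is TATAAA on the other strand.
EFNB2: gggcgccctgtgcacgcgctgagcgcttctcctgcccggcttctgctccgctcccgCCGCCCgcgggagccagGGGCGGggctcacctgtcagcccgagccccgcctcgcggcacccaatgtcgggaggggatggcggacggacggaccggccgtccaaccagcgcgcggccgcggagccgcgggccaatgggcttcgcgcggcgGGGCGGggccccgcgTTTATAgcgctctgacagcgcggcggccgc
EFNA5: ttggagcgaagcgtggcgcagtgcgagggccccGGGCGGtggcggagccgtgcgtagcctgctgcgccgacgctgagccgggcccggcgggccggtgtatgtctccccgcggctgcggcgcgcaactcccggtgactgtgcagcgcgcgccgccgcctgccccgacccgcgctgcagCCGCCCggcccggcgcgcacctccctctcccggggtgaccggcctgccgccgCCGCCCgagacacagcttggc
EPHB3: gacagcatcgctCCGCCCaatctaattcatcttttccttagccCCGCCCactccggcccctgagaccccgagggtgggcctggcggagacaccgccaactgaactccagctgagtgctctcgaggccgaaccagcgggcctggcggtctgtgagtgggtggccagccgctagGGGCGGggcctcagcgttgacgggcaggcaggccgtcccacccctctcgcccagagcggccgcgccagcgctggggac
EPHA2: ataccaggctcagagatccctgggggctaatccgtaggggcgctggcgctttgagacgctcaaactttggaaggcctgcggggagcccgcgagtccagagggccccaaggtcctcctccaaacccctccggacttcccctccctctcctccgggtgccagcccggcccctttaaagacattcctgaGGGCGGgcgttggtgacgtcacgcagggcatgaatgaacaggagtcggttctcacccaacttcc
EPHA3: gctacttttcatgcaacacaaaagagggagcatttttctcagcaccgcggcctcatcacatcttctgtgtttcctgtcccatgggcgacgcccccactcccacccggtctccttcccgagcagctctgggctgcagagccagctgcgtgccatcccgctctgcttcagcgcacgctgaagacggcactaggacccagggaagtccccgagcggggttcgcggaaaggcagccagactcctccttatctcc

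RefSeq promoter windows of 300 bases, from 250 before to 50 after the start, were matched for 10 of 10 genes and searched on both strands. A GC box was present in 9 of the 10 windows, all but that of EPHA3, against 45% of 35116 promoters. EFNB2 held 3 GC boxes, at -194, -177 and -45 from the start, and was the only gene of the 10 with TATAAA in its window, at -30. TATAAA was present in 11.5% of all promoters. The glucocorticoid response element half-site AGAACA was in 0 of the 10 windows, against 14.8% of all promoters, and TGANTCA, the AP-1 motif, was in 0 of 10, against 7.7%. GC content was 78.7% for EFNB2, 78% for EFNA5, 69% for EPHB3, 64.3% for EPHA2 and 59.7% for EPHA3, all above the median of 58.7% over all promoters. EPHB2 (83%), EPHB4 (74.3%), EFNA1 (71.7%) and EFNB1 (63.7%) also lay above it, and EPHA4, at 43%, lay below it. These matches describe letters in a short window and say nothing of the factors that bind there or elsewhere.

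Within the family, EPHA2 was by far the most abundant receptor message. Divided by exon length, its level was 5817 ± 410 normalised counts per kb in S134A-GR Dex cells, 8315 ± 92.4 in S134A-GR vehicle cells, 8212 ± 867 in WT-GR Dex cells and 11070 ± 59.6 in WT-GR vehicle cells (SD, n = 3). It ranked first of the 22 family genes in each of the 4 groups. EPHB4, known as the receptor for EFNB2 on venous endothelium, ranked second in each group, at 1596 ± 86.0 normalised counts per kb in S134A-GR Dex cells, 1458 ± 25.9 in S134A-GR vehicle cells, 1644 ± 84.2 in WT-GR Dex cells and 1514 ± 25.8 in WT-GR vehicle cells. EPHB2 followed at 707 to 897 per kb, whereas EPHA4, which accepts ephrins of both classes, stood at 105 to 133 per kb and EPHB3 at 65.5 to 160 per kb. EPHA3 ranged most, with 4.60 per kb in S134A-GR Dex cells and 5.34 in S134A-GR vehicle cells, against 99.1 in WT-GR Dex cells and 115 in WT-GR vehicle cells.

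The ephrins lay closer together. EFNB2, a ligand of EPHB4, was at 905 ± 9.37 per kb in S134A-GR Dex cells and 397 ± 8.61 in S134A-GR vehicle cells, and at 1258 ± 39.7 in WT-GR Dex cells and 686 ± 25.9 in WT-GR vehicle cells (SD, n = 3). Its rank in the family was 3 in both Dex groups, 7 in S134A-GR vehicle cells and 4 in WT-GR vehicle cells. EFNA1, the ligand named most often for EPHA2, was at 495 to 627 per kb, EFNA5, which binds several A receptors, at 311 to 687 per kb, and EFNB1 at 251 to 483 per kb. The ephrins EFNA3 and EFNA4, which are not among the 10, stood at similar levels, from 527 to 695 per kb, but a read-through gene on the same strand covers 47.9% and 15% of their exon bases, which makes their counts uncertain. The other family genes did not exceed 16.0 per kb in any group mean. Some neighbours in rank did not differ beyond their spread: EPHA4 and EPHB3 stood at 133 ± 14.2 and 132 ± 9.70 per kb in WT-GR vehicle cells, and EFNA4 and EFNA5 at 695 ± 48.9 and 687 ± 17.7 per kb in WT-GR Dex cells (SD, n = 3). The order between genes rests on the exon length annotated for each.

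**Figure D1:**
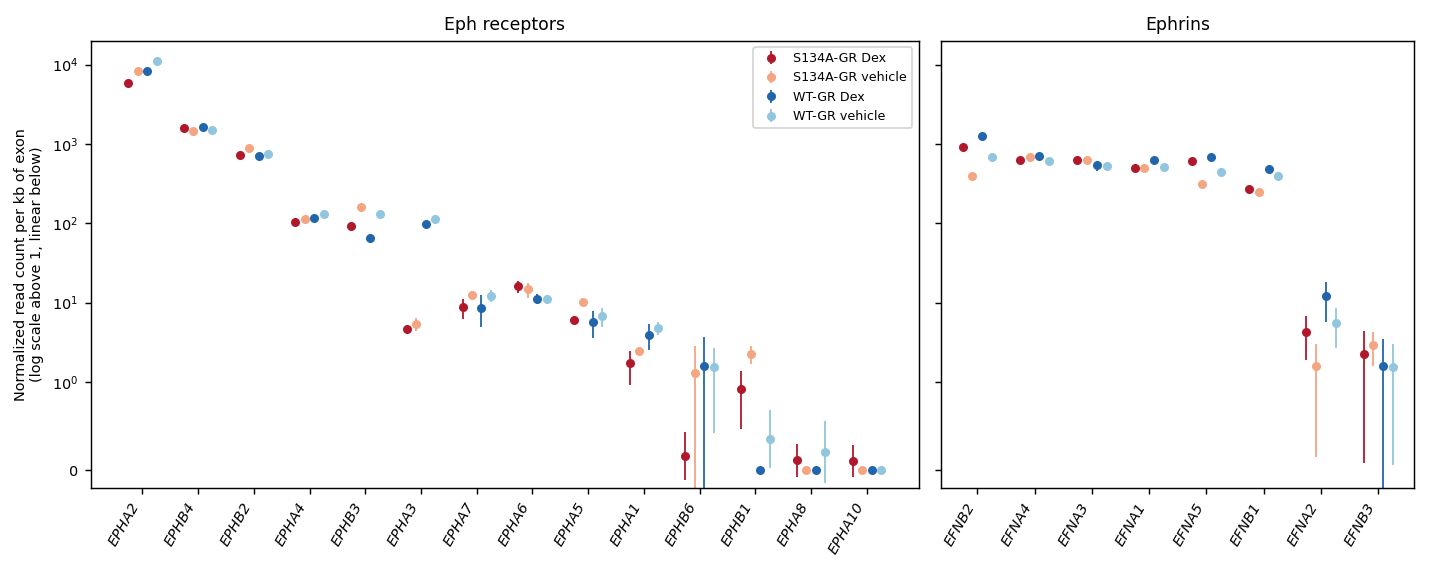
Mean normalised read count per kb of exon for the 14 Eph receptors and 8 ephrins in the 4 groups (points: means of 3 libraries; bars: SD; log scale above 1, linear below). EPHA2 lies at 5817 per kb or higher in every group, EPHB4 between 1458 and 1644, and EPHA3 near 5 in both S134A-GR groups.

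EPHA2 and EPHB3 fell with Dex in cells of both genotypes. EPHA2 had 21218, 23660 and 24298 normalised counts in S134A-GR Dex libraries, against 32836, 32671 and 33371 in S134A-GR vehicle libraries. In WT-GR cells it had 36013, 32505 and 29141 with Dex, against 43772, 44160 and 43732 with vehicle. Every Dex library lay below every vehicle library of its genotype, and the WT-GR Dex libraries were the most scattered. The limma difference was -0.52 on the log2(value + 1) scale in S134A-GR cells (SE 0.0666, adjusted p = 6.88e-05) and -0.44 in WT-GR cells (SE 0.0666, adjusted p = 3.06e-04), which are ratios of means of 0.700 and 0.742. In bulk RNA, fewer cells expressing a gene and less RNA per cell cannot be told apart.

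EPHB3, a B receptor known for sorting cells along the intestinal crypt, had 333, 426 and 413 normalised counts in S134A-GR Dex libraries, against 681, 702 and 645 in S134A-GR vehicle libraries. In WT-GR cells it had 307, 281 and 243 with Dex, against 518, 555 and 600 with vehicle. Dex and vehicle libraries were fully apart in both genotypes. In S134A-GR cells it fell by 0.80 on the log2 scale (SE 0.119, limma adjusted p = 2.58e-04) and by 1.01 in WT-GR cells (SE 0.119, limma adjusted p = 2.89e-05). Within the start region shown above, EPHB3 carries 3 GC boxes.

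EPHB2, the other B receptor of the crypt, had 8131, 8651 and 9233 normalised counts in S134A-GR Dex libraries, against 10740, 10749 and 11078 in S134A-GR vehicle libraries. In WT-GR cells it had 8970, 8233 and 8470 with Dex, against 9382, 8996 and 8918 with vehicle. The groups were apart in S134A-GR cells and overlapped in WT-GR cells. The difference was -0.33 in S134A-GR cells (SE 0.0511, limma adjusted p = 4.12e-04) and -0.09 in WT-GR cells (SE 0.0511, limma adjusted p = 0.212, range 0.034 to 0.837 over 23 alternatives, of which scaling by library size alone passed). The Dex groups of both genotypes stood at nearly the same level, 8672 ± 551 in S134A-GR cells and 8558 ± 376 in WT-GR cells (SD, n = 3), and the S134A-GR vehicle libraries were the ones that stood higher.

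The remaining receptors did not pass the test with Dex. EPHB4 had 6514, 7112 and 7203 normalised counts in S134A-GR Dex libraries, against 6260, 6471 and 6294 with vehicle, and 7471, 7239 and 6753 in WT-GR Dex libraries, against 6698, 6585 and 6474 with vehicle. Each Dex library lay above each vehicle library of its genotype, yet the differences were small, at 0.13 (95% interval 0.02 to 0.24, limma adjusted p = 0.113) in S134A-GR cells and 0.12 (0.01 to 0.23, limma adjusted p = 0.0981) in WT-GR cells. EPHB4 passed in 2 of 23 alternatives in S134A-GR cells, among them without S134A-GR Dex library 1 (0.17, range of the adjusted p 4.64e-04 to 0.344), and in 3 of 23 in WT-GR cells, among them without WT-GR Dex library 3 (0.16, range 0.0152 to 0.417). EPHA4 differed by -0.11 in S134A-GR cells (95% interval -0.35 to 0.12) and by -0.20 in WT-GR cells (-0.44 to 0.04), with overlapping libraries. With library weights, which is 1 of 23 alternatives, the WT-GR difference was -0.33 and passed (range of the adjusted p 0.0271 to 0.462). EPHA3, which binds A ephrins such as EFNA5, had 34.9, 27.1 and 30.1 normalised counts in S134A-GR Dex libraries, against 34.9, 42.6 and 29.4 with vehicle, and 596, 680 and 708 in WT-GR Dex libraries, against 727, 863 and 707 with vehicle. Dex and vehicle libraries overlapped in both genotypes, and the limma adjusted p was 0.537 in S134A-GR cells and 0.376 in WT-GR cells.

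**Figure D2:**
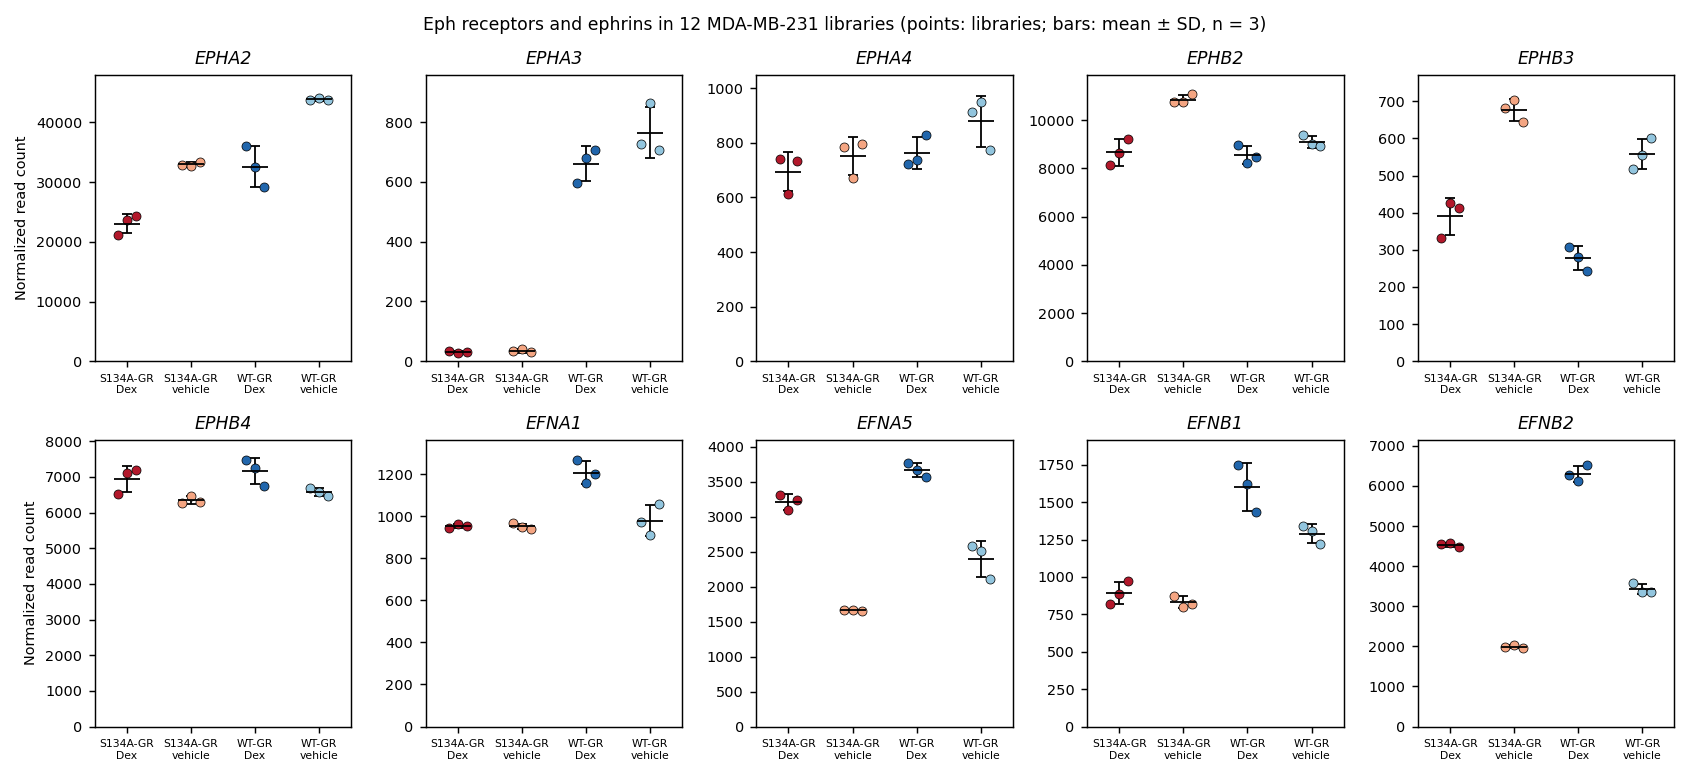
Normalised read counts of the 10 genes in the 12 libraries (points: libraries; bars: mean ± SD, n = 3; each panel has its own linear axis from 0). EFNB2 and EFNA5 stand higher with Dex in both genotypes, EPHA2 and EPHB3 stand lower, and EPHA3 is near 0 on its axis in both S134A-GR groups.

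EFNB2 and EFNA5 rose with Dex in cells of both genotypes. EFNB2 had 4549, 4567 and 4478 normalised counts in S134A-GR Dex libraries, against 1981, 2038 and 1953 in S134A-GR vehicle libraries. In WT-GR cells it had 6267, 6123 and 6516 with Dex, against 3586, 3358 and 3365 with vehicle. The groups were far apart relative to their spread in both genotypes, and the lowest S134A-GR Dex library lay above the highest WT-GR vehicle library. In S134A-GR cells the rise on the log2 scale was 1.19 (SE 0.0465, limma adjusted p = 4.03e-10), a ratio of means of 2.28, and 0.87 in WT-GR cells (SE 0.0465, limma adjusted p = 9.91e-09), a ratio of 1.83. An antisense gene on the opposite strand covers 1303 bases (26%) of the EFNB2 exons. Whether reads were counted by strand is not given in the sources used here, so reads of the antisense gene cannot be told apart from those of EFNB2.

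EFNA5 had 3314, 3090 and 3233 normalised counts in S134A-GR Dex libraries, against 1665, 1663 and 1651 in S134A-GR vehicle libraries. In WT-GR cells it had 3763, 3666 and 3574 with Dex, against 2584, 2510 and 2106 with vehicle. Here too no Dex library reached down to a vehicle library of its genotype. It rose by 0.95 in S134A-GR cells (SE 0.0693, limma adjusted p = 2.34e-07) and by 0.62 in WT-GR cells (SE 0.0693, limma adjusted p = 1.92e-05), which are ratios of means of 1.94 and 1.53.

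EFNA1 and EFNB1 passed the test in WT-GR cells and not in S134A-GR cells. The difference of the responses, given below, passed for neither gene in the main test. EFNA1 had 946, 964 and 956 normalised counts in S134A-GR Dex libraries, against 966, 950 and 942 with vehicle, and 1268, 1157 and 1199 in WT-GR Dex libraries, against 971, 912 and 1056 with vehicle. The difference was 0.00 in S134A-GR cells (95% interval -0.15 to 0.15) and 0.30 in WT-GR cells (SE 0.0698, limma adjusted p = 0.00595). EFNB1, a B ephrin encoded on the X chromosome, had 819, 887 and 972 in S134A-GR Dex libraries, against 876, 802 and 819 with vehicle, and 1750, 1619 and 1432 in WT-GR Dex libraries, against 1341, 1306 and 1218 with vehicle. For both genes the S134A-GR groups overlapped and the WT-GR groups did not. The EFNB1 difference was 0.10 in S134A-GR cells (95% interval -0.09 to 0.29) and 0.31 in WT-GR cells (SE 0.0877, limma adjusted p = 0.0189). The EFNB1 call is near the threshold: it was lost without WT-GR vehicle library 2 (0.32), WT-GR vehicle library 3 (0.27) or WT-GR Dex library 1 (0.24), and in a fit of the compared groups alone, and its adjusted p ranged from 0.00377 to 0.0735 over 23 alternatives. EFNA1 kept its call in 22 of 23 alternatives, with an adjusted p of 0.0542 in the fit of the compared groups alone (range 6.28e-04 to 0.0542).

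Counted together, 2 of the 10 genes rose with Dex in S134A-GR cells (EFNA5 and EFNB2) and 3 fell (EPHA2, EPHB2 and EPHB3), where 7.99% of all genes tested were called higher and 7.76% lower. In WT-GR cells 4 rose (the 4 ephrins) and 2 fell (EPHA2 and EPHB3), where 13.9% of all genes tested were called higher and 14% lower. All genes that rose were ephrins and all that fell were receptors, among genes selected with their values known. The median difference over the 10 was -0.05 in S134A-GR cells and 0.01 in WT-GR cells, beside -0.02 in each over all genes tested.

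**Figure D3:**
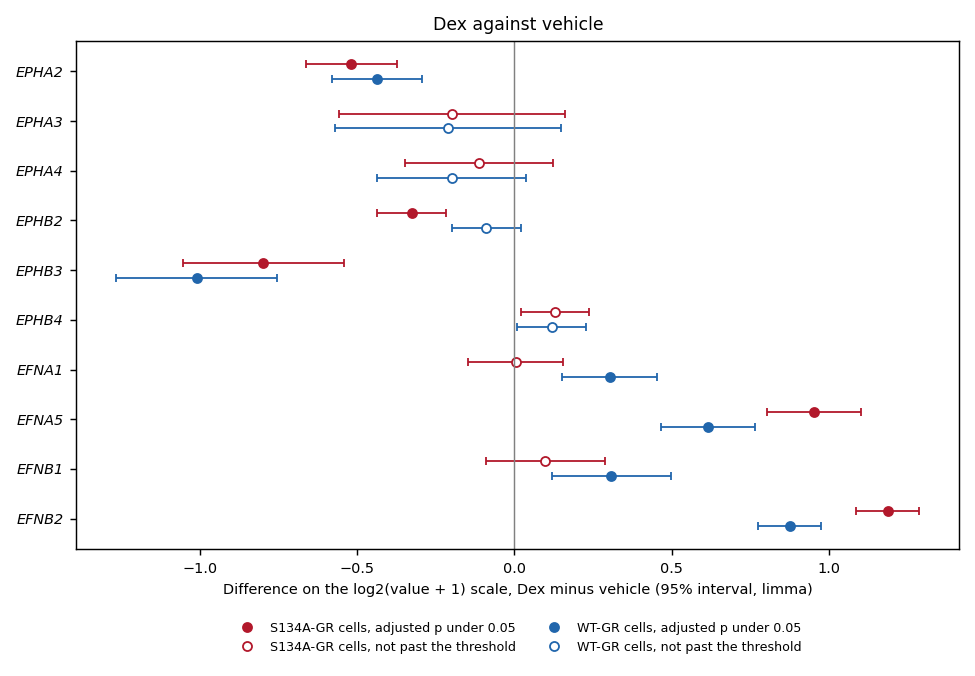
Dex minus vehicle difference of each gene on the log2(value + 1) scale in S134A-GR cells and WT-GR cells (points: limma estimates; bars: 95% intervals; filled points: adjusted p under 0.05). The 4 ephrins lie at or above 0 and EPHA2, EPHB2 and EPHB3 below it in both genotypes.

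The ratio of ephrin to receptor message was higher in Dex libraries. Summed per kb, the 8 ephrins amounted to 0.423 ± 0.0199 of the 14 receptors in S134A-GR Dex cells, against 0.251 ± 0.00837 in S134A-GR vehicle cells, and to 0.397 ± 0.0219 in WT-GR Dex cells, against 0.232 ± 0.00481 in WT-GR vehicle cells (SD, n = 3). EFNB2 over EPHB4, a ligand with its main receptor, was 0.568 ± 0.0344 in S134A-GR Dex cells, against 0.273 ± 0.0028 in S134A-GR vehicle cells, and 0.767 ± 0.0615 in WT-GR Dex cells, against 0.453 ± 0.0112 in WT-GR vehicle cells. For both ratios the Dex libraries lay above the vehicle libraries of their genotype without overlap. EPHA2 made up 69.5 ± 0.446% of the summed receptor signal per kb in S134A-GR Dex cells and 75.7 ± 0.268% in S134A-GR vehicle cells, and 75.4 ± 1.33% in WT-GR Dex cells and 80.5 ± 0.282% in WT-GR vehicle cells. EFNB2 made up 25.7 ± 0.646% of the summed ephrin signal in S134A-GR Dex cells and 14.4 ± 0.318% in S134A-GR vehicle cells, and 29.3 ± 1.73% in WT-GR Dex cells and 21.5 ± 0.774% in WT-GR vehicle cells. EFNA3 made up 12.45% (WT-GR Dex) to 22.6% (S134A-GR vehicle) of the summed ephrin signal, and EFNA4 16.2% to 24.5% in the same groups. The uncertainty stated above for the counts of EFNA3, EFNA4 and EFNB2 thus enters these ratios, and the SDs do not cover it. The ratios follow from the values above and were not tested separately.

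Whether the Dex response differed between S134A-GR and WT-GR cells was tested as the difference of the responses, S134A-GR minus WT-GR. For this test 0 of the 10 genes passed in limma, where 0.414% of all genes tested were called in either direction. At an unadjusted limma p under 0.05 there were 4 of 10, beside 17.5% of all genes tested. Of the 10, edgeR called 0, beside 0.382% of all genes tested, and DESeq2 called 2 (EFNA5 and EFNB2), beside 3.17%. EFNB2 was nearest to the threshold, with a difference of 0.31 (95% interval 0.17 to 0.45, limma adjusted p = 0.0625, range 8.10e-04 to 0.2 over 22 alternatives, of which 5 passed). Without WT-GR Dex library 3 it passed, at 0.34. The differences were 0.33 for EFNA5 (95% interval 0.12 to 0.55, limma adjusted p = 0.151), -0.30 for EFNA1 (-0.51 to -0.09, limma adjusted p = 0.19) and -0.24 for EPHB2 (-0.39 to -0.08, limma adjusted p = 0.168). Without WT-GR vehicle library 3 the EFNA5 difference passed, at 0.43, and it passed in 3 of 22 alternatives in all (range of the adjusted p 0.00768 to 0.362). Those of EFNA1 and EPHB2 passed in 2 of 22 each, which were library weights and leaving out WT-GR Dex libraries 2 and 3 (range 0.0147 to 0.398 for EFNA1 and 0.0335 to 0.385 for EPHB2). So the S134A-GR response was the larger in value for EFNB2 and EFNA5 and the smaller for EFNA1, and in the main test none of these differences passed. For EPHA2 the difference was -0.08 (95% interval -0.28 to 0.12) and for EPHB3 0.21 (-0.15 to 0.57). For EFNB1 it was -0.21 (95% interval -0.48 to 0.06, limma adjusted p = 0.386), and 0 of 22 alternatives passed.

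EPHA3 set the genotypes apart. As listed above, its 6 S134A-GR libraries held 27.1 to 42.6 normalised counts and its 6 WT-GR libraries 596 to 863. The S134A-GR minus WT-GR difference was -4.40 in vehicle (SE 0.167, limma adjusted p = 3.52e-10) and -4.39 in Dex (SE 0.167, limma adjusted p = 5.08e-10), ratios of means of 0.0465 and 0.0465. The 3 nearest tested genes before it and the nearest after it did not share the size of this difference. In vehicle the values were -0.66 for ZNF654, -0.27 for CGGBP1, -0.12 for C3orf38 and -0.02 for PROS1. These genes lie far from EPHA3, at 938.8 to 962.9 kb before it and 4390.9 kb after it. A change limited to the EPHA3 locus was not tested. The window upstream of EPHA3 was the only one of the 10 without a GC box.

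**Figure D4:**
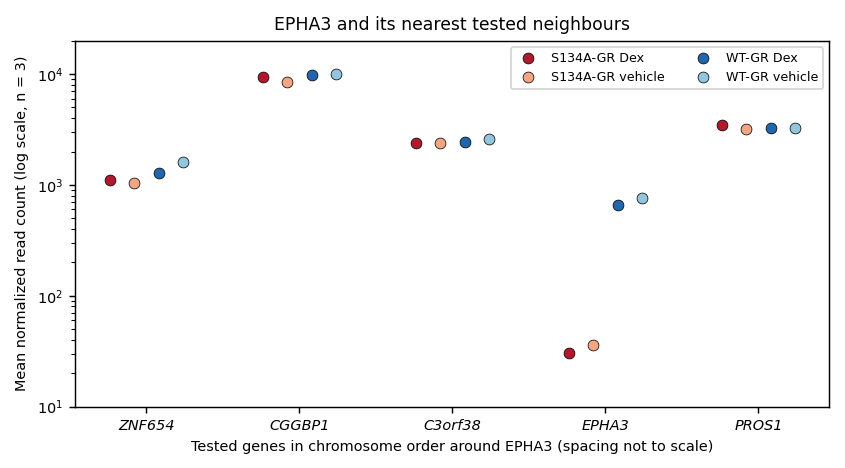
Mean normalised read count (log scale, n = 3) of EPHA3, the 3 nearest tested genes before it and the nearest after it, in chromosome order, for the 4 groups. EPHA3 is near 30 in both S134A-GR groups and above 660 in both WT-GR groups. None of these 4 neighbours, which lie 938.8 to 4390.9 kb away, shows a gap of that size.

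The ephrins EFNB1, EFNB2 and EFNA5 and the receptor EPHA2 were also lower in S134A-GR cells. In vehicle, EFNB1 averaged 832 ± 38.7 normalised counts in S134A-GR cells and 1289 ± 63.3 in WT-GR cells, and EFNB2 averaged 1991 ± 43.1 in S134A-GR cells and 3436 ± 130 in WT-GR cells (SD, n = 3). EFNA5 averaged 1660 ± 7.66 in S134A-GR vehicle cells and 2400 ± 257 in WT-GR vehicle cells, and EPHA2 32959 ± 366 in S134A-GR vehicle cells and 43888 ± 236 in WT-GR vehicle cells. The libraries of these 4 genes did not overlap between genotypes in vehicle or in Dex. Differences between these genotypes were common: limma called 23.8% of all genes tested higher and 26.7% lower in vehicle, and 23.4% and 26.3% in Dex. The share of all genes without overlap was not computed, here or for the Dex comparisons above. The lack of overlap thus only describes these libraries. EFNB1 differed by -0.63 in vehicle (limma adjusted p = 5.14e-05) and by -0.84 in Dex (limma adjusted p = 4.29e-06). EFNB2 differed by -0.79 in vehicle (limma adjusted p = 2.36e-08) and by -0.48 in Dex (limma adjusted p = 2.43e-06). EPHA2 differed by -0.41 in vehicle (limma adjusted p = 1.75e-04) and by -0.49 in Dex (limma adjusted p = 4.12e-05). EFNA5 differed by -0.53 in vehicle (limma adjusted p = 3.24e-05) and by -0.19 in Dex (limma adjusted p = 0.0346), and the Dex call ended in 6 of 23 alternatives: without S134A-GR Dex library 2 (-0.16) or 3 (-0.20), without WT-GR Dex library 1 (-0.17) or 2 (-0.19), without WT-GR Dex libraries 2 and 3 together (-0.23), and with scaling by library size alone (-0.07, range of the adjusted p 0.00604 to 0.367).

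EPHB2 was higher in S134A-GR cells in vehicle and EPHB3 in Dex. EPHB2 averaged 10856 ± 192 normalised counts in S134A-GR vehicle cells and 9099 ± 248 in WT-GR vehicle cells (SD, n = 3), without overlap, a difference of 0.25 (limma adjusted p = 9.56e-04). In Dex the EPHB2 difference was 0.02 (95% interval -0.09 to 0.13), and with scaling by library size alone it was 0.14 and passed (range of the adjusted p 0.0318 to 0.91 over 23 alternatives). EPHB3 averaged 391 ± 50.4 in S134A-GR Dex cells and 277 ± 32.3 in WT-GR Dex cells, a difference of 0.49 (limma adjusted p = 0.00374), and the call ended (0.34, adjusted p = 0.0826, range 2.30e-04 to 0.0826 over 23 alternatives) when WT-GR Dex libraries 2 and 3 were both left out. In vehicle its difference was 0.28 (95% interval 0.02 to 0.54, limma adjusted p = 0.0652), and 7 of 23 alternatives passed, among them those without S134A-GR Dex library 1 and without WT-GR Dex library 3, each at 0.28. EFNA1 differed by -0.34 in Dex (limma adjusted p = 0.00129) and by -0.04 in vehicle (95% interval -0.19 to 0.11). EPHB4 differed by -0.04 in Dex and -0.05 in vehicle, and EPHA4 by -0.14 and -0.23, and neither passed. With library weights the EPHB4 difference in vehicle was -0.06 and passed, as did that of EPHA4. Without WT-GR vehicle library 3 the EPHA4 difference in vehicle was -0.32 and passed (range of the adjusted p 0.0011 to 0.335 over 23 alternatives).

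Of the 10 genes, 1 was called higher and 5 lower with S134A-GR than with WT-GR in vehicle, where 23.8% of all genes tested were called higher and 26.7% lower. In Dex 1 was called higher and 6 lower, where 23.4% of all genes tested were called higher and 26.3% lower. The median difference over the 10 was -0.32 in vehicle and -0.26 in Dex, beside 0.01 in each over all genes tested. With scaling by library size alone, the median over all genes tested became 0.09 in vehicle and 0.12 in Dex, and the share of calls that were higher became 59.6% in vehicle and 64.9% in Dex, against 47.2% and 47% in the main test. In the Dex comparison of WT-GR cells this scaling gave 32.4% higher calls, against 49.7%. The comparisons in vehicle and in Dex contrast separate libraries, but both use the spread pooled over all 12 libraries in 1 fit. Their p-values are thus not independent. Each comparison also shares its libraries with the Dex comparisons above.

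**Figure D5:**
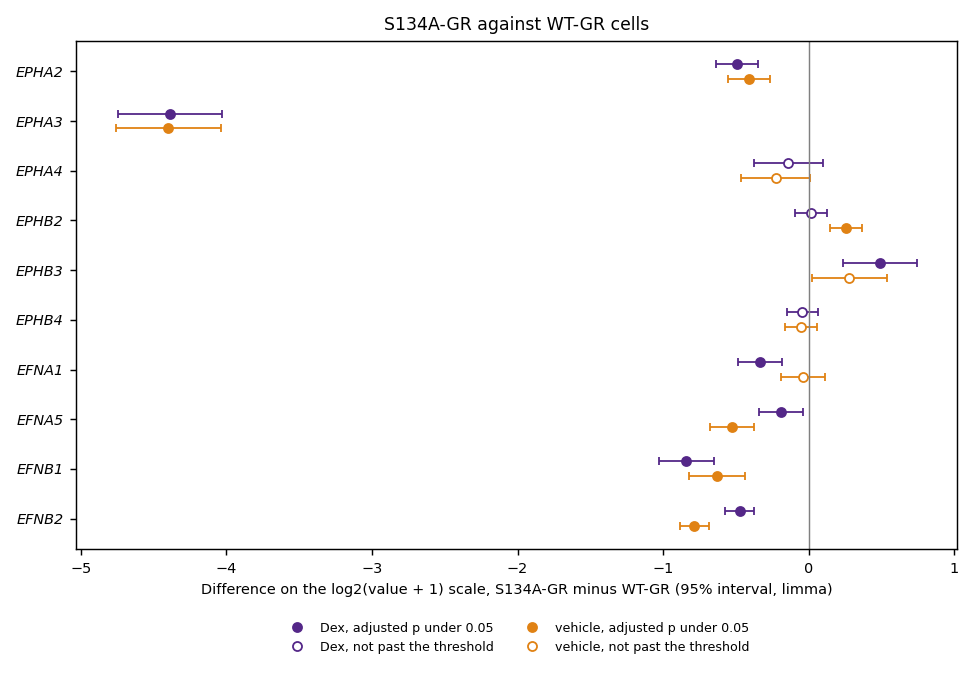
S134A-GR minus WT-GR difference of each gene on the log2(value + 1) scale in Dex and in vehicle (points: limma estimates; bars: 95% intervals; filled points: adjusted p under 0.05). EPHA3 lies near -4.4 in both treatments and the other 9 genes between -0.84 and 0.49.

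Among the 12 family genes that were not selected, 8 passed the filter on low values (EPHA1, EPHA5, EPHA6, EPHA7, EPHB6, EFNA3, EFNA4 and EFNB3). Of these, EPHA1, EPHB6 and EFNB3 did not exceed 18.8 normalised counts in any library, and EPHA5, EPHA6 and EPHA7 did not exceed 110.5. At such levels a missing call says little. With Dex, limma called 0 of the 8 in S134A-GR cells, beside 7.99% higher and 7.76% lower over all genes tested. In WT-GR cells it called 0, beside 13.9% and 14%. At an unadjusted p under 0.05 there were 1 and 0, edgeR called 0 and 0, and DESeq2 called 1 and 0. Over all genes tested in S134A-GR cells, 25.8% were under that unadjusted p and DESeq2 called 18.9%. Between genotypes limma called EFNA3 in vehicle, at 0.24 (adjusted p = 0.0496), beside 23.8% higher and 26.7% lower over all genes tested. In Dex limma called 0 genes, beside 23.4% higher and 26.3% lower, and edgeR and DESeq2 also called 0 there. An unadjusted limma p under 0.05 was found for 3 in Dex, beside 56.2% of all genes tested. EFNA3 had 1084 to 1144 normalised counts in S134A-GR Dex libraries and 1063 to 1166 in S134A-GR vehicle libraries, against 850 to 1120 in WT-GR Dex libraries and 893 to 1009 in WT-GR vehicle libraries. EFNA4, EFNA3 and EFNA1 lie in a row on chromosome 1, with EFNA4 57.9 kb and EFNA3 39.9 kb before EFNA1, and with Dex in WT-GR cells EFNA1 alone of the 3 was called. EPHA8, EPHA10, EPHB1 and EFNA2 did not pass the filter and did not exceed 18.0 normalised counts in any library.

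Forward signalling from Eph receptors runs through adaptors, exchange factors for small GTPases and phosphatases. Of 40 such genes tested, 7 rose and 4 fell with Dex in S134A-GR cells, and 7 rose and 6 fell in WT-GR cells, where 7.99% of all genes tested were called higher and 7.76% lower in S134A-GR cells, and 13.9% higher and 14% lower in WT-GR cells. PTPN1, a phosphatase that acts on EPHA3 and other receptor tyrosine kinases, averaged 37591 ± 716 normalised counts in S134A-GR Dex cells and 21690 ± 166 in S134A-GR vehicle cells, and 32990 ± 613 in WT-GR Dex cells and 21043 ± 296 in WT-GR vehicle cells (SD, n = 3). Its differences were 0.79 (limma adjusted p = 1.16e-09) and 0.65 (limma adjusted p = 9.64e-09). RASA1, a Ras GTPase-activating protein that binds B receptors, fell by 0.61 in S134A-GR cells (limma adjusted p = 2.86e-06) and by 0.89 in WT-GR cells (limma adjusted p = 6.08e-08). NGEF, the exchange factor ephexin, fell by 0.53 in S134A-GR cells (limma adjusted p = 1.50e-04), and its difference in WT-GR cells was -0.12 and did not pass. DOCK4, an exchange factor for Rac, fell by 0.50 in S134A-GR cells (limma adjusted p = 0.0119) and by 0.47 in WT-GR cells (limma adjusted p = 0.0113). Between genotypes 6 of the 40 were higher and 20 lower in vehicle, and 7 higher and 18 lower in Dex (over all genes tested, 23.8% and 26.7% in vehicle and 23.4% and 26.3% in Dex). GRB10, an adaptor of EPHB1, differed by -1.11 in vehicle and -0.94 in Dex, the exchange factor KALRN by -1.54 and -1.34, and the exchange factor ARHGEF16 by 1.79 and 1.48, all called by limma.

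Reverse signalling of B ephrins uses adaptors and PDZ proteins that bind their cytoplasmic tail. Of 9 such genes tested, 3 rose and 1 fell with Dex in each genotype, beside 7.99% higher and 7.76% lower over all genes tested in S134A-GR cells and 13.9% and 14% in WT-GR cells. NCK2, an SH2 and SH3 adaptor that binds the phosphorylated B ephrin tail, rose by 0.45 in S134A-GR cells (limma adjusted p = 1.35e-05) and by 0.54 in WT-GR cells (limma adjusted p = 2.35e-06). RGS3, which links B ephrins to G protein signalling, fell by 0.50 in S134A-GR cells (limma adjusted p = 1.14e-04) and by 0.28 in WT-GR cells (limma adjusted p = 0.0076). The transcription factor STAT3 rose by 0.15 in S134A-GR cells (limma adjusted p = 0.0283) and by 0.26 in WT-GR cells (limma adjusted p = 7.13e-04). PTPN13, a phosphatase with PDZ domains, rose by 0.27 in S134A-GR cells (limma adjusted p = 0.0244), and its difference in WT-GR cells was 0.03 and did not pass. Between genotypes 2 were higher and 4 lower in vehicle, and 2 higher and 5 lower in Dex (over all genes tested, 23.8% and 26.7% in vehicle and 23.4% and 26.3% in Dex). GRIP1, a PDZ scaffold of B ephrins, averaged 3.78 ± 0.848 normalised counts in S134A-GR vehicle cells and 56.3 ± 13.1 in WT-GR vehicle cells, a difference of -3.57 (limma adjusted p = 4.86e-05). STAT3 differed by -0.54 in vehicle and -0.64 in Dex, and PICK1, another PDZ protein, by 0.53 and 0.38.

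Ephs and ephrins are shed by membrane proteases. Of 10 such genes tested, 1 rose and 1 fell with Dex in S134A-GR cells, where 7.99% of all genes tested were called higher and 7.76% lower. In WT-GR cells 2 rose and 2 fell, where the shares were 13.9% and 14%. MMP14, a membrane metalloproteinase that cleaves EPHA2, averaged 93152 ± 4987 normalised counts in S134A-GR Dex cells and 148299 ± 3352 in S134A-GR vehicle cells, and 74489 ± 5071 in WT-GR Dex cells and 100638 ± 1523 in WT-GR vehicle cells (SD, n = 3). With Dex it fell in both genotypes, as EPHA2 did, by 0.67 (limma adjusted p = 4.73e-07) and 0.44 (limma adjusted p = 3.56e-05). Between genotypes the 2 genes went opposite ways. MMP14 was higher with S134A-GR, by 0.56 in vehicle (limma adjusted p = 1.55e-06) and 0.32 in Dex (limma adjusted p = 1.91e-04), and EPHA2 was lower in both. ADAM12 fell by 0.80 in WT-GR cells (limma adjusted p = 0.00589), and its difference in S134A-GR cells was -0.50 and did not pass. Between genotypes 4 were higher and 3 lower in vehicle, and 3 higher and 4 lower in Dex (over all genes tested, 23.8% and 26.7% in vehicle and 23.4% and 26.3% in Dex). ADAM17 averaged 4120 ± 82.7 normalised counts in S134A-GR vehicle cells and 8540 ± 445 in WT-GR vehicle cells, differences of -1.05 in vehicle and -1.04 in Dex. RHBDL2, a rhomboid protease known to cut EFNB3, differed by -2.91 and -3.05, and ADAM12 by 0.62 and 0.91.

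Semaphorins, plexins, slits, robos and netrins are the other guidance families. Of 35 of these genes tested, 5 rose and 6 fell with Dex in S134A-GR cells (7.99% and 7.76% of all genes tested), and 7 rose and 8 fell in WT-GR cells (13.9% and 14%). PLXNA2, a semaphorin receptor, averaged 11748 ± 510 normalised counts in S134A-GR Dex cells and 2627 ± 190 in S134A-GR vehicle cells, and 13004 ± 979 in WT-GR Dex cells and 3674 ± 449 in WT-GR vehicle cells (SD, n = 3). Its rise of 2.16 in S134A-GR cells (limma adjusted p = 4.03e-10) and 1.83 in WT-GR cells (limma adjusted p = 2.35e-09) was larger in value than that of EFNB2. SEMA7A fell by 1.16 in S134A-GR cells and 0.93 in WT-GR cells, and SEMA3A by 1.09 and 1.12, all called by limma. SEMA3E fell by 1.13 in S134A-GR cells, and its difference in WT-GR cells was -0.42 and did not pass. Between genotypes 8 were higher and 14 lower in vehicle, and 8 higher and 18 lower in Dex (over all genes tested, 23.8% and 26.7% in vehicle and 23.4% and 26.3% in Dex). The netrin receptor UNC5B differed by -2.62 in vehicle and -2.02 in Dex, and SEMA3E by -1.44 and -2.15. For the difference of the Dex responses limma called 0 genes in each of these 4 lists, and edgeR called 0. At an unadjusted limma p under 0.05 there were 14 of 40 for forward signalling, 4 of 9 for reverse signalling, 2 of 10 for the proteases and 12 of 35 for the guidance genes, where 17.5% of all genes tested were under it. DESeq2 called 3 of the forward signalling genes, 2 of the guidance genes and 0 in the other lists, where it called 3.17% of all genes tested.

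For the 3 genes with the largest genotype difference in vehicle, the tested genes outside the family with the most similar pattern over the 4 group means were found by the root mean square distance of the centred log2 means. For EPHA3 they were LOC643201 (0.0402), FBP1 (0.118) and AMPH (0.119), and LOC643201 averaged 21.6 normalised counts in S134A-GR Dex cells and 26.0 in S134A-GR vehicle cells, against 459 in WT-GR Dex cells and 527 in WT-GR vehicle cells. For EFNB2 they were SLC22A13 (0.0584), HEG1 (0.072) and ZC3H12C (0.0769). HEG1 averaged 34060 in S134A-GR Dex cells and 14410 in S134A-GR vehicle cells, and 45760 in WT-GR Dex cells and 22700 in WT-GR vehicle cells. For EFNB1 they were DPP4 (0.0303), TRIB3 (0.0333) and PPME1 (0.0367). A likeness over 4 means is a description and says nothing of a shared function.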

How the data were processed

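RNA-seq libraries of MDA-MB-231 cells were grouped by genotype and treatment from their labels. The submitters' processing notes name hg38, FastQC 0.11.7, featureCounts, Subread and DESeq2 1.22.2. An aligner and an annotation were not given in the sources used here. The values deposited by the authors are a normalised signal per gene. Within each library 100% of values were whole multiples of what 1 read is worth, within 0.01 reads, which gave back 56.36 to 100.6 M reads per library. The labels give a mean of 40 M reads, even counts made up 58.16 to 67.51% of those up to 20 reads, and whether mates were counted separately is not stated.

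Names in the Dex files are shifted: 26485 names stand beside 19907 values, and the vehicle names were used by line. By line, each Dex library correlated with the vehicle means at 0.9816 to 0.9886, and by deposited name at -0.0056 to -0.0036. The match by line was best in 97 of 97 windows of lines in every Dex library.

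The test was limma 3.58.1 in R 4.3.3, with the trend option on log2(value + 1), 1 fit of all 12 libraries, a filter that kept genes reaching 10 in 3 or more libraries, two-sided, with Benjamini-Hochberg adjustment over 15957 genes at 0.05. This scale understates changes of low genes. Each of the 5 comparisons was recomputed with other pseudocounts, filters and scalings, with edgeR 4.0.16 and DESeq2 1.42.0 on recovered reads, with a replicate block and without each library. Positions and exon lengths come from GENCODE 29, promoters from RefSeq.

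The members and lists were chosen with earlier results of these data known. Named were all 10 genes, up to 3 called genes per list and comparison with the largest difference, and 3 nearest patterns for each of the 3 genes with the largest genotype difference in vehicle. Some genes that this rule names are not reported here.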

Additional observations from a re-analysis of the deposited data

How the results depend on the processing

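Alternatives were run for each gene and for the count of genes called. Leaving out 1 library at a time gave 600 values for single genes, of which 7 lost and 7 gained a call, and no called value changed sign. The counts of genes called then ranged from 5 to 6 for Dex in S134A-GR cells (5 in the main test), 5 to 7 for Dex in WT-GR cells (6), 0 to 1 for the difference of responses (0), 6 to 7 between genotypes in vehicle (6) and 6 to 7 in Dex (7). Other alternatives gave 540 values, of which 5 lost and 23 gained a call. For the difference of responses they called 1 gene with scaling by library size alone, 2 with DESeq2, 3 without WT-GR Dex libraries 2 and 3 and 4 with library weights. The lone WT-GR Dex library in that fit is assumed to vary like the others. With the Dex names as deposited the rows belong to other genes. Not all of the 10 genes could be tested in this way, which gave 32 values for single genes. For Dex in S134A-GR cells 8 genes were called, beside 13549 of 14188 over all genes tested. The difference gave 4, beside 4718 of 14188, and the genotypes in Dex gave 2, beside 3995 of 14188. Signs then turned for Dex in S134A-GR cells (EPHA3 7.847, EPHB3 1.006, EFNB2 -7.284), for Dex in WT-GR cells (EPHA3 3.497, EPHB3 0.889, EFNB2 -8.899), for the difference (EFNA1 0.364) and between genotypes in Dex (EFNA1 0.326, EFNA5 0.045, EFNB2 0.829).

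Same-numbered libraries did not deviate together (correlations -0.0852 to 0.0551 over 18 pairs), so the numbers are not taken as pairs. With the replicate block the counts of genes called were 5, 6, 0, 6 and 7 in the order above. Over all genes the difference of responses gave 66 calls, against 25 with the replicate block, 506 with DESeq2, 2854 with library weights, 1604 without WT-GR Dex library 3, 2550 without WT-GR Dex libraries 2 and 3, and 26 to 69 without any other library. Dex in WT-GR cells gave 4455, against 7113 with library weights, 2490 with the compared groups alone and 2963 without WT-GR vehicle library 2. Dex in S134A-GR cells gave 2513, against 5116 with library weights. The cause was not tested. Precision is limited by 3 libraries per group and, for EPHA3 in S134A-GR cells, by about 30 reads.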
